A study of Oryza sativa Indica Group with 2 samples.

Results

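Brassinosteroid synthesis and signalling in rice is represented here by 9 genes, D11, DWARF4, D2, BRD1, BRI1, GSK2, BZR1, DLT and RAVL1, taken by their RAP identifiers from a deposited table of 35677 genes. The rule that names them uses their place in the pathway and no measured value, though it was written with earlier results of these data known. All 9 were found, and 7 of them passed a filter on low values, a level of 1 FPKM or more when both libraries are averaged. FPKM scales the fragments of a gene to transcript length and library size, so levels can be set beside each other between genes. The material was seedlings of the Indica group of rice at the tillering stage, grown in Wuhan over the summer. One library came from the wild type (WT) and 1 from GRF7OE-1, a transgenic line that overexpresses the transcription factor OsGRF7 and is called GRF7OE below. The table heads the WT columns WT_YB, a name it does not explain. The promoter of the transgene and the number of seedlings in a library are not stated in any source used, and the library stands for a single transgenic line. The question is which transcripts differ in abundance between line and WT.

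Brassinosteroids are plant steroid hormones that promote cell elongation, and in rice they are best known for setting plant height, leaf angle and grain size. They are made from sterols by a chain of cytochrome P450 enzymes and are bound at the cell surface by the receptor kinase BRI1 with its co-receptors. The bound receptor leads to the inactivation of GSK3-type kinases such as GSK2. These kinases otherwise phosphorylate and hold back BZR1, the transcription factor that carries the signal to target genes, and DLT. BZR1 also represses synthesis genes, which closes a feedback loop.

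The WT library held about 16824991 reads in genes and the GRF7OE library about 17021467. OsGRF7 itself was at 5.10 FPKM in WT and 70.7 in GRF7OE, so the label of the overexpression library was borne out by its transcript. Leaf transcripts were abundant in both libraries. The 24 entries for the Rubisco small chain and chlorophyll a-b binding proteins summed to 36248 FPKM in WT and 46282 in GRF7OE. Of these, 20 were higher in GRF7OE and 3 were listed at 0 in both. Of all genes that passed the filter, 48.3% were higher in GRF7OE. The root marker RCc3 was at 10.4 FPKM in WT and 5.19 in GRF7OE, and the meristem gene OSH1 at 5.90 and 4.74. The floral genes MADS1 and MADS3 were at 0.120 and 1.58 FPKM in WT and at 0.949 and 1.19 in GRF7OE, and MADS7 and the endosperm gene GluB1 had no read in either. Some of these organ markers thus differed between WT and GRF7OE, the leaf entries in their sum, RCc3 on 100 and 49 reads and MADS1 on 3 and 24. The part of such markers in the values below was not tested. In bulk RNA, fewer cells of a type and less RNA per cell cannot be told apart.

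There is 1 library on each side, so differences could not be checked against replicates and the conditions were not tested. Each fold is the plain ratio of the deposited FPKM values, and the brackets after it hold the 95% exact interval from the read numbers, which covers counting error only. A second measure, the log2 ratio after adding 1 FPKM to each value, was used to count genes past 2-fold, and it understates the ratio of low genes. On that scale none of the 7 expressed genes of the 9 was past 2-fold, and 4.49% of the 23397 genes that passed the same filter were. At 1.5-fold or more, 1 of the 7 was counted, DLT on the higher side, and 14.0% of all tested genes were, 9.18% higher and 4.79% lower. The counting interval of the fold left out 1 for 4 of the 7, above 1 for DLT and DWARF4 and below it for D11 and BRI1. Over all tested genes it did so for 49.6%, above 1 for 24.4% and below 1 for 25.2%, so the share among these genes is near the background. The median log2 ratio of the 7 was 0.08, and that of all tested genes was -0.01. The authors' deposited table gives a significant call to none of the 9, and to 1.63% of the genes whose status is OK.

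**Figure D1:**
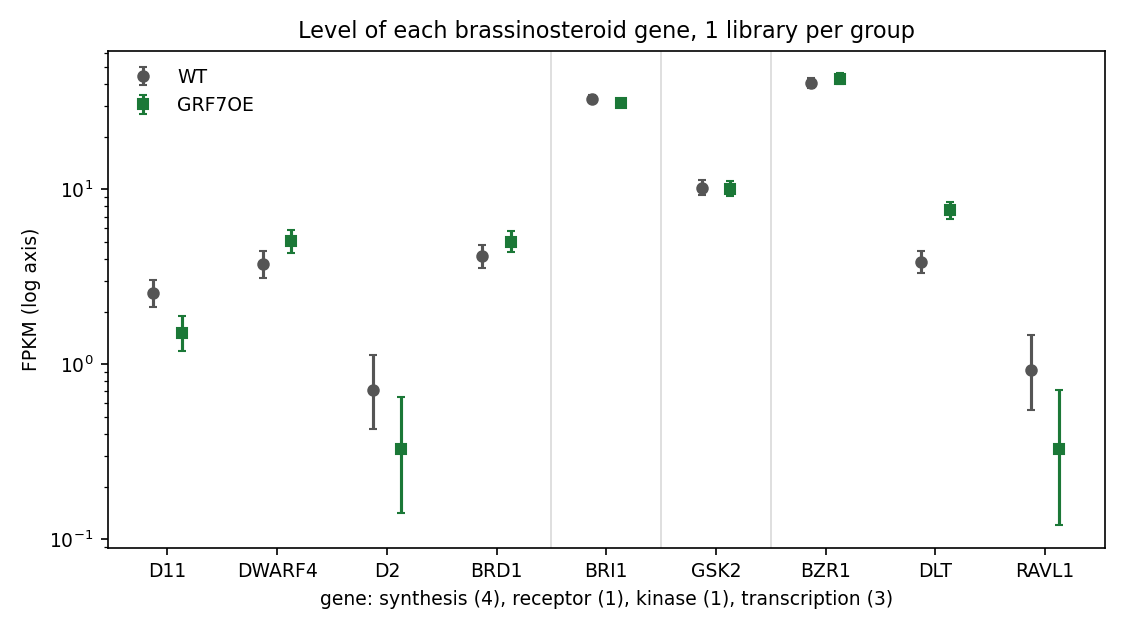
FPKM of each of the 9 genes in the WT library (grey circles) and the GRF7OE library (green squares) on a log axis, with bars for the 95% exact Poisson counting interval of each library. BZR1 and BRI1 lie between 31.1 and 43.1 FPKM in both libraries, D2 and RAVL1 under 1 FPKM, and the intervals of the 2 libraries stand apart for DLT and D11. How many of all tested genes have intervals that stand apart was not counted. For 49.6% of them the interval of the ratio left out 1.

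The 4 synthesis genes encode cytochrome P450 enzymes and were expressed at low levels. D11 (OS04G0469800), the enzyme CYP724B1, and DWARF4 (OS03G0227700), the enzyme CYP90B2, share an early side-chain hydroxylation in rice, a step known to limit the flow through the pathway. D11 was at 2.55 FPKM in WT and 1.51 in GRF7OE, on 132 and 79 reads. This was 1.68-fold lower in GRF7OE [1.26 to 2.25], and the intervals of the level in each library did not overlap. The share of all tested genes without such an overlap was not counted. DWARF4 lay the other way, at 3.73 FPKM in WT and 5.06 in GRF7OE, on 127 and 168 reads. It was 1.36-fold higher in GRF7OE [1.07 to 1.72], though the intervals of its 2 levels overlapped.

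The ratio between the 2 transcripts can be given for each library. DWARF4 was at 1.46 times the FPKM of D11 in WT and at 3.35 times in GRF7OE. The second ratio was 2.28 times the first, with an exact counting interval of 1.57 to 3.34. The pair was set side by side after the values were seen, so an interval that leaves out 1 is no support for a difference. The log2 ratio of D11 was -0.50, and 18.7% of all tested genes had a larger absolute value. That of DWARF4 was 0.36, with 31.2% of tested genes beyond it.

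BRD1 (OS03G0602300), also called OsDWARF, is the enzyme CYP85A1 that carries out the last oxidations towards castasterone, the main active brassinosteroid of rice. It was at 4.15 FPKM in WT and 5.04 in GRF7OE, on 168 and 206 reads, 1.21-fold higher [0.986 to 1.498]. That interval holds 1, so the difference was not detectable at this depth, and the normalised counts gave 1.24-fold with a lower bound of 1.004. D2 (OS01G0197100), the enzyme CYP90D2 of the later steps, was nearly silent at 0.717 FPKM in WT and 0.328 in GRF7OE. These values rest on 18 and 8 reads, and the fold of 2.19 on the lower side had an interval of 0.904 to 5.81. Among the 3279 genes with a mean under 1 FPKM and at least 10 reads over both libraries, 14.2% were 2-fold or more lower. Summed over the 4 enzymes, the level was 11.1 FPKM in WT and 11.9 in GRF7OE.

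BRI1 (OS01G0718300), the receptor, was among the more abundant of the 9, at 33.1 FPKM in WT and 31.1 in GRF7OE. As a ratio of FPKM it was 1.07-fold lower [1.004 to 1.13], and the interval held 1, from 0.993 to 1.12, when the libraries were scaled to a median ratio of 1. In mean level BRI1 stood above 80.2% of tested genes. The normalised counts of the same table gave a larger difference. They stood at 2278 in WT and 1870 in GRF7OE, which is 1.22-fold lower [1.15 to 1.29], from 2387 and 1942 reads.

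The gap between the 2 measures of BRI1 was unusual among genes. Its log2 FPKM ratio lay 0.19 above its log2 count ratio. Over 23363 tested genes with reads in both libraries the median of that gap was -0.02, and the middle 98% of genes fell between -0.14 and 0.12. Only 112 of those genes, 0.479%, had a larger gap on the same side. The other 6 expressed genes of the 9 lay between -0.06 and 0.09. The protein that the table pairs with BRI1 is the entry OS01T0718300-03 of 205 residues, far shorter than a full receptor kinase, and its closest Swiss-Prot entry is BRI1 of Arabidopsis. How the authors' FPKM weights the transcripts of a gene is not stated in any source used.

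**Figure D2:**
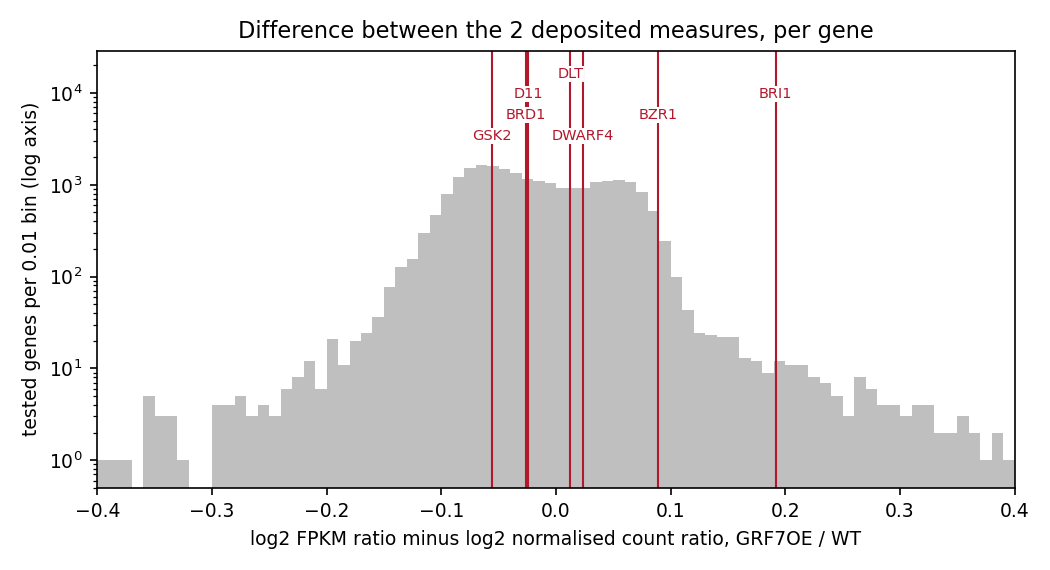
Histogram of the log2 FPKM ratio minus the log2 normalised count ratio for tested genes with reads in both libraries, in bins of 0.01 on a log count axis, with 28 genes beyond 0.4 not drawn. Red lines mark the 7 expressed brassinosteroid genes, of which BRI1 at 0.19 is the 1 outside the bulk of genes.

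GSK2 (OS05G0207500), the GSK3-type kinase that holds the pathway back, was nearly the same in both libraries. It was at 10.2 FPKM in WT and 10.1 in GRF7OE, on 386 and 392 reads. The fold of 1.01 on the lower side had an interval of 0.879 to 1.17, so a difference beyond these bounds lies outside counting error. The log2 ratio was -0.02, and 95.5% of tested genes had a larger absolute value. From the normalised counts the sign turned, with a log2 ratio of 0.04.

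BZR1 (OS07G0580500), the transcription factor released when GSK2 is inactive, had the highest level of the 9. It was at 40.7 FPKM in WT and 43.1 in GRF7OE, on 806 and 794 reads, 1.06-fold higher [0.958 to 1.17]. The interval holds 1, and the direction flipped to a log2 ratio of -0.01 from the normalised counts and with both libraries scaled to the same FPKM sum. The kinase and its target were therefore alike in the libraries within counting error. Transcript levels do not show the phosphorylation state of either protein.

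DLT (OS06G0127800) differed most among the expressed genes of the 9. It encodes a GRAS family protein that promotes brassinosteroid responses, and rice plants that lack it are short with few tillers. DLT was at 3.86 FPKM in WT and 7.59 in GRF7OE, on 177 and 342 reads. The intervals of the 2 levels, 3.31 to 4.47 and 6.80 to 8.44, did not overlap, which was not counted over all tested genes. The fold was 1.97 on the higher side [1.64 to 2.37], and the normalised counts gave 1.95 [1.62 to 2.35]. On the log2 scale with 1 FPKM added the ratio was 0.82, which 7.12% of tested genes exceeded in absolute value. In the authors' deposited table DLT has a p-value of 0.00954 and an FDR of 0.271, values that compare these libraries and not the conditions. Among the 9 it has the smallest p-value there, and the other 8 have an FDR of at least 0.939.

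RAVL1 (OS04G0581400), a B3-domain transcription factor, is known in rice as an activator of BRI1 and of synthesis genes that include D2, D11 and BRD1. It was nearly silent, at 0.928 FPKM in WT and 0.327 in GRF7OE. The fold was 2.84 on the lower side [1.08 to 8.73], from 18 and 6 reads. Of the genes with a mean under 1 FPKM and at least 10 reads over both libraries, 9.27% had an interval wholly below 1.

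**Figure D3:**
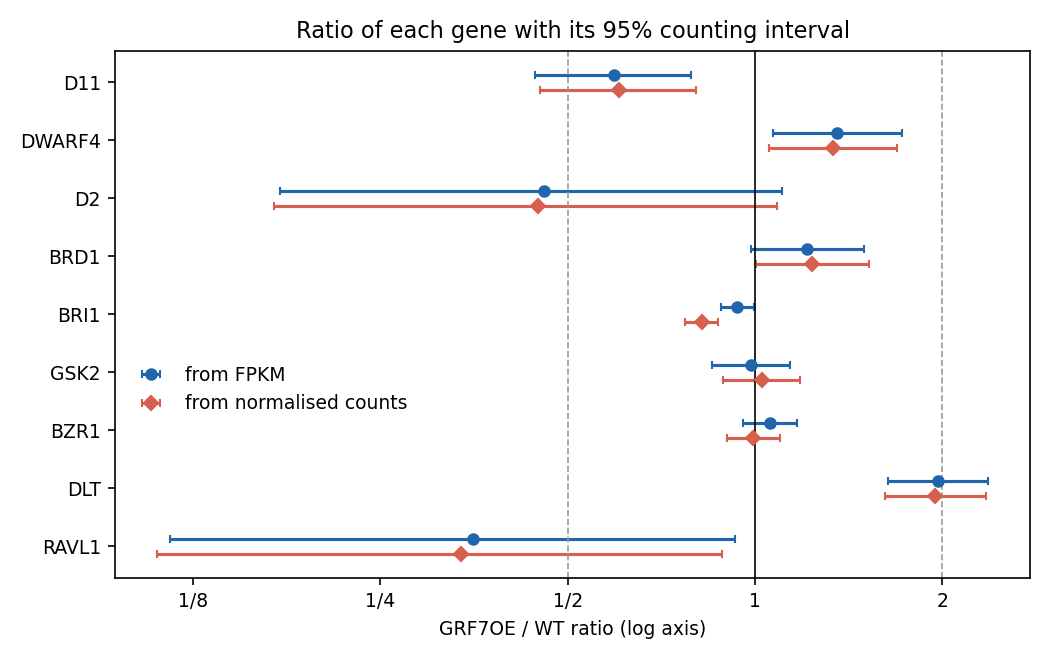
Ratio of GRF7OE to WT for each of the 9 genes on a log axis, from FPKM (blue circles) and from normalised counts (red diamonds), with bars for the 95% exact counting interval, a solid line at 1 and dashed lines at 2-fold either way. DLT lies at 1.97 and 1.95 with both intervals above 1, and BRI1 is the gene whose 2 measures differ most for their width.

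The order of the 9 levels was nearly the same in both libraries, apart from DLT. In WT it ran from BZR1 through BRI1 and GSK2 to BRD1, DLT, DWARF4, D11, RAVL1 and D2. The counting intervals of the neighbours BRD1 and DLT, DLT and DWARF4, and RAVL1 and D2 overlapped, so their order is not resolved. In GRF7OE the first 3 were the same, and DLT came next with an interval clear of both its neighbours. DWARF4 and BRD1 followed at 5.06 and 5.04 FPKM with overlapping intervals, then D11, and D2 and RAVL1 overlapped at the lower end at 0.328 and 0.327.

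In the table's own annotation 7 of the 9 carry at least 1 of the gene ontology terms for brassinosteroid synthesis, signalling, response or homeostasis. DLT and RAVL1 carry none of them. For DWARF4 the closest Swiss-Prot entry is CYP90A1 of Arabidopsis, at 61% similarity, while the table's KEGG name is CYP90B1.

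The rest of the pathway was followed in a list of 40 other genes, which have 41 entries in the table because CYP734A6 is split over 2. Of these entries 38 passed the filter. On the log2 scale with 1 FPKM added, none was 2-fold higher and 1 was 2-fold lower, where the background was 3.24% and 1.25%. The median was -0.05, with 16 ratios above 0 and 22 below, and over all tested genes 48.3% lay above 0 and 51.7% below. At 1.5-fold, 3 were counted as higher, CYCU4;1, GW5 and BUL1, and 2 as lower, BZR3 and an entry of CYP734A6, where the background was 9.18% and 4.79%. The counting interval lay above 1 for 8 entries and below 1 for 12, against 24.4% and 25.2% of all tested genes, and it held 1 for 18. These shares are near the background. The authors' deposited table calls none of the 41.

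**Figure D4:**
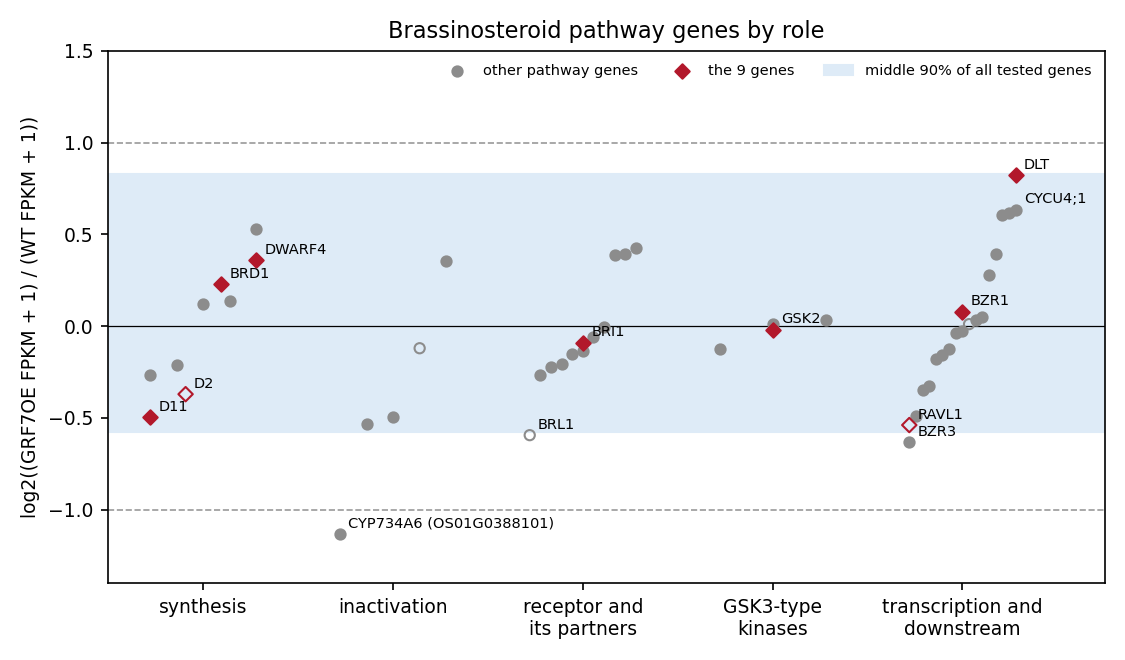
Log2 ratio of GRF7OE to WT, with 1 FPKM added to each value, for the 9 genes (red diamonds) and 41 other pathway entries (grey circles) by role, with open symbols for means under 1 FPKM. The blue band from -0.58 to 0.83 holds the middle 90% of all tested genes, dashed lines mark 2-fold, and the entry of CYP734A6 at -1.13 is the 1 beyond them.

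Of the 5 other synthesis genes, 1 had an interval that left out 1, where 49.6% of all tested genes did. CPD2, a CYP90A enzyme, was at 13.1 FPKM in WT and 11.2 in GRF7OE, 1.17-fold lower [1.02 to 1.35]. Its recent duplicate CPD1 was at 2.82 and 3.15 FPKM, and the division of reads between the pair is uncertain. BRD2, the sterol reductase of the first steps, was at 18.3 FPKM in WT and 20.2 in GRF7OE, with an interval from 0.962 to 1.27. DET2, a steroid reductase, was at 1.73 and 2.93 FPKM on 18 and 29 reads, a ratio of 1.70 with an interval of 0.913 to 3.25. CYP90D3, a close relative of D2, was at 1.90 and 1.41 FPKM on 47 and 35 reads, also with an interval that held 1. At these read numbers differences of such size were not detectable.

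Genes of the CYP734A family, whose enzymes inactivate brassinosteroids, differed in direction, with CYP734A6 and CYP734A2 lower and CYP734A4 higher. Over all tested genes an interval below 1 was found for 25.2% and one above 1 for 24.4%. CYP734A6 had 1 entry, OS01G0388000, at 6.43 FPKM in WT and 4.13 in GRF7OE, 1.56-fold lower [1.11 to 2.21]. Its other entry, OS01G0388101, was at 4.31 and 1.42 FPKM on 22 and 7 reads, 3.03-fold lower [1.25 to 8.39]. Both carry the same MSU identifier and are fragments of 182 and 144 residues, so the split of reads between them is uncertain. CYP734A2 was at 1.39 FPKM in WT and 0.697 in GRF7OE, on 34 and 16 reads, 1.999-fold lower [1.07 to 3.88]. CYP734A4 went the other way, at 2.12 and 2.99 FPKM, 1.41-fold higher [1.02 to 1.97], but its interval held 1 from normalised counts and with equal FPKM sums. CYP734A5 had 2 reads in WT and 0 in GRF7OE, too few for a fold. Summed over the 5 entries the level was 14.3 FPKM in WT and 9.24 in GRF7OE. Both fragments of CYP734A6 enter that sum and make up most of it, so it mainly reflects that 1 gene and not the family.

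Among receptors and their partners, the BRI1 homologue BRL1 had the largest fold, at a low level. It was at 0.993 FPKM in WT and 0.320 in GRF7OE, on 80 and 26 reads, 3.10-fold lower [1.97 to 5.03]. Its mean was below the filter, and in the authors' deposited table its FDR is 0.191. Of the 3279 genes with a mean under 1 FPKM and at least 10 reads over both libraries, 14.2% were 2-fold or more lower. An interval below 1 was found for 9.27% of those genes. BRL3, the other homologue, was at 1.26 and 0.954 FPKM with an interval that held 1, but not with equal FPKM sums. The co-receptor gene SERK2 was at 53.5 FPKM in WT and 70.6 in GRF7OE, 1.32-fold higher [1.25 to 1.40], while BAK1, its close relative, was at 18.0 and 17.9. XIAO, a receptor-like kinase tied to organ size, was 1.40-fold higher [1.18 to 1.65] at 9.41 FPKM against 6.74 in WT. PPKL3, a phosphatase of the family that acts between receptor and kinase, was at 43.9 FPKM in WT and 37.5 in GRF7OE, 1.17-fold lower [1.099 to 1.25]. Of the 10 expressed entries of this role, 3 had an interval above 1, 4 below, and 3 held it, where 24.4% and 25.2% of all tested genes lay above and below.

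The 3 other GSK3-type kinases lay close to WT, as GSK2 did. GSK1 was at 34.9 FPKM in WT and 35.2 in GRF7OE, GSK3 at 31.9 and 32.8, and GSK4 at 36.9 and 33.8. GSK4 was the 1 whose interval left out 1, at 1.09-fold lower [1.01 to 1.18], and from normalised counts it held 1. Together with GSK2 they summed to 114 FPKM in WT and 112 in GRF7OE. GSK2 made up the smallest share of that sum in both libraries.

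The 3 homologues of BZR1 had ratios below 1, as did 51.7% of all tested genes. For BZR2 and BZR3 the interval lay below 1, where 25.2% of all tested genes had such an interval. BZR2 and BZR4 were added after their values were seen. BZR2 was at 51.2 FPKM in WT and 40.1 in GRF7OE, 1.28-fold lower [1.17 to 1.39]. BZR3 was at 10.4 and 6.38 FPKM, 1.64-fold lower [1.36 to 1.97], on 311 and 186 reads. BZR4 was at 8.16 and 6.31 FPKM, with an interval that held 1 from FPKM and left it out from normalised counts. The 4 genes summed to 111 FPKM in WT and 95.8 in GRF7OE, and BZR2 was the highest of them in WT. In GRF7OE the intervals of BZR1 and BZR2 overlapped.

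Regulators and targets further down had intervals on either side of 1, at shares near the background. CYCU4;1, a U-type cyclin tied to leaf erectness in rice, was at 12.4 FPKM in WT and 19.8 in GRF7OE, 1.60-fold higher [1.29 to 1.99]. GW5, a grain-width protein that restrains GSK2 in rice, was at 3.17 and 5.40 FPKM, 1.70-fold higher [1.20 to 2.42], on 56 and 89 reads. GF14c, a protein of the family that holds phosphorylated BZR1 in the cytoplasm, was at 96.1 and 126 FPKM, 1.32-fold higher [1.24 to 1.39]. WRKY53, a positive regulator of the pathway in rice, had the highest level of the list, at 272 FPKM in WT and 265 in GRF7OE, with an interval that held 1 from FPKM. The normalised counts of WRKY53 gave 1.09-fold lower [1.06 to 1.13]. SMOS1, an AP2-type factor that works with DLT, was at 36.3 and 35.7 FPKM, and LIC, a zinc finger repressor of BZR1 action, at 7.55 and 6.55, both with intervals that held 1 (with equal FPKM sums that of LIC lay on the lower side). Of the 16 expressed entries of this role, 4 had an interval above 1, 3 below, and 9 held it, beside 24.4% and 25.2% of all tested genes.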

How the data were processed

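The authors deposited 1 table with FPKM values and count values for both libraries. Bowtie and Cuffdiff are named in the submitters' processing notes, without versions, and no source used states the genome build. The deposited count columns are a normalised signal, not raw counts. Below 10000, 99.3% of values in GRF7OE and 99.2% in WT were whole multiples, within 0.05, of 1 step of 0.963 or 0.954, which was taken as 1 read. The deposited p-values and FDR compare library with library and were made by the authors. The deposited log2 ratios compare the 2 libraries, per the file headers, which name no measure, and were not used here.

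Ratios have 95% exact (Clopper-Pearson) intervals from the reads, carried onto the FPKM ratio. Counting intervals treat reads as independent molecules. No fold is given where both libraries had at most 3 reads. Genes past 2-fold were counted on log2(FPKM + 1) among genes averaging 1 FPKM or more. The 9 genes and the list of 40 others were chosen with earlier results of these data known, the others from knowledge of the pathway. Named among the others are those past 2-fold and, per role, the 2 highest entries and the 2 with the largest absolute log2 ratio. CYP734A2, CYP734A4, CYP734A5, BRL3, BAK1, BZR2, BZR4, SMOS1, LIC, GW5, BUL1, CPD1, ILI1, BU1 and IBH1 were added after their values were seen. The gene ontology terms, the TTL1 entries and the ILI factors were also taken up after the values were seen. The counting step was tested on simulated reads. A RefSeq gene table could not be linked to these genes by identifier, so no coordinates or sequences are given. The work was done in Python 3.11.15 with SciPy 1.17.1 and NumPy 2.4.6, tables with pandas 2.3.3, figures with Matplotlib 3.10.9. Pseudocounts of 0.1 and 0.5, other filters, 2 other scalings, the count columns, 1.5-fold and the authors' calls were tried as alternatives.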

Additional observations from a re-analysis of the deposited data

How the results depend on the processing

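Of the genes among the 9 that passed the filter, none was past 2-fold under another pseudocount, filter or scaling or from the normalised counts. RAVL1 and D2, below the filter, were past it in places, RAVL1 at -1.27 with a pseudocount of 0.1 and at -1.42 from the normalised counts, and D2 at -1.06 from the latter. At 1.5-fold the count was 1. The number of other pathway entries past 2-fold, 1 in the main count, was 2 from the normalised counts, 5 at 1.5-fold, and 0 with the filter raised to 5 FPKM and by the authors' calls. The number of all tested genes past 2-fold, 1051 in the main count, was 1659 with a pseudocount of 0.1, 646 with the filter at 5 FPKM, 1614 from the normalised counts, 3269 at 1.5-fold and 410 by the authors' calls. The median log2 ratio of the genes among the 9 that passed the filter ran from -0.02 with no filter to 0.10 with the median ratio scaled to 1, so its sign is not settled. Scaling to equal FPKM sums brought the median of all tested genes to -0.09 and BRI1 to -0.18. From the normalised counts BRI1 came to -0.28, and the cause was not tested. D11, D2, RAVL1 and BRI1 were below 0, and DWARF4, BRD1 and DLT above it, in each alternative that gave a value. The log2 ratio of DLT ran from 0.74 to 0.96. No paired analysis was possible because each group holds 1 library. Depth limits D2 and RAVL1, with at most 18 reads in a library.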

Other observations

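The table's own gene ontology terms give a wider view of the pathway, taken up after the values were seen. In all, 78 entries carry a term for brassinosteroid synthesis, signalling, response or homeostasis, 7 of them among the 9 genes and 21 among the other pathway entries. The authors' deposited table gives a significant call to none of the 78. Of the 71 that passed the filter at 1 FPKM, 3 were 2-fold higher in GRF7OE and 1 was 2-fold lower on the log2 scale with 1 FPKM added, near the background of 3.24% and 1.25%. Counted by sign alone, 30 of the 71 lay above 0 and 41 below, where 48.3% and 51.7% of all tested genes did. The counting interval lay above 1 for 12 of the 71 and below it for 26, beside 24.4% and 25.2% of all tested genes, and the median log2 ratio was -0.09. The lower one is the entry OS01G0388101 of CYP734A6. Among the higher ones is OS09G0459500, described as a probable BRI1 kinase inhibitor, a class that blocks the receptor in Arabidopsis. It was at 4.64 FPKM in WT and 12.6 in GRF7OE, on 23 and 60 reads, 2.71-fold higher [1.65 to 4.60]. The others are OS10G0404300, described as ILI7, with 2 reads in WT and 15 in GRF7OE, and OS05G0128600, a hypothetical protein of 81 residues, with 3 and 12 reads. A pair of entries described as the thioredoxin TTL1 was also picked after the values were seen. Proteins of that family help assemble the brassinosteroid signalling complex in Arabidopsis. OS05G0210600 was at 7.47 and 15.0 FPKM, 2.01-fold higher [1.75 to 2.32], and OS01G0616300 at 5.60 and 10.8 FPKM, 1.93-fold higher [1.56 to 2.40]. With 1 FPKM added, the log2 ratios of these entries were 0.92 and 0.84, so neither was counted past 2-fold. Both were past 1.5-fold, where 9.18% of all tested genes were that much higher. The authors' deposited table gives a significant call to neither.

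The ILI factors, small helix-loop-helix proteins of which ILI1 promotes leaf bending in rice, differed among themselves. This family was taken up after the values were seen, so its ratios are no support for a difference. The table describes 8 entries as ILI factors, 6 of them with a mean of at least 1 FPKM. With 1 FPKM added, 2 of the 6 were 2-fold higher and 1 was 2-fold lower, where 3.24% and 1.25% of all tested genes were. The counting interval lay above 1 for 3 and below it for 1, beside 24.4% and 25.2% of all tested genes. ILI3 (OS03G0171700) was at 3.19 FPKM in WT and 10.2 in GRF7OE, on 44 and 137 reads, 3.20-fold higher [2.26 to 4.60], with an FDR of 0.0626 in the authors' deposited table. OS10G0403800, whose closest described protein is also ILI3, lay the other way at 5.52 and 2.20 FPKM, 2.51-fold lower [1.57 to 4.12]. ILI5, the gene BUL1, was at 4.23 and 6.96 FPKM, 1.65-fold higher [1.09 to 2.52]. ILI1 and ILI4, the gene BU1, had intervals that held 1, except that ILI1 was 1.67-fold lower [1.006 to 2.82] with equal FPKM sums. IBH1, which binds ILI1 and opposes it, was at 16.1 FPKM in WT and 14.7 in GRF7OE, also with an interval that held 1.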
